A study of Mus musculus with 8 samples.

Results

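The 10 genes described here act in oocyte meiotic arrest, through cyclic AMP (cAMP), cyclic GMP (cGMP) and the switches of the meiotic cell cycle. They were chosen by name and were found in the deposited counts by their NCBI gene ID, 10 of 24823 genes in the table. They comprise the receptors *Gpr3* and *Gpr12*, the adenylyl cyclase *Adcy3*, the phosphodiesterase *Pde3a*, the peptide precursor *Nppc* and its receptor *Npr2*, the CDK1 regulators *Wee2* and *Cdc25b*, and *Mos* and *Fbxo43*, which act at the later arrest in metaphase II. The study asked how the nuclear receptor NR5A2 (LRH-1) of granulosa cells affects the first follicles. RNA of whole ovaries of mice at postnatal day 4 (PND4), when primordial follicles have just formed, was sequenced in 8 libraries, 4 per genotype. The conditional knockout (cKO) carried Nr5a2 f/f with Amhr2-cre Tg/+, and the control littermates (CON) carried Nr5a2 f/f with Amhr2-cre +/+, so that both genotypes had the floxed allele and only the cKO had the Cre transgene. All mice were on the C57BL/6 background. The *Amhr2* promoter drives Cre in granulosa and other somatic cells and not in oocytes, so the oocytes of both genotypes keep an intact *Nr5a2* gene.

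Fully formed oocytes stop in the prophase of the first meiotic division and stay there until ovulation. In a grown oocyte a receptor coupled to Gs holds cAMP high, the phosphodiesterase PDE3A would destroy it, and cGMP made by granulosa cells under the peptide CNP enters through gap junctions and keeps PDE3A inactive. High cAMP activates protein kinase A, which holds CDK1 inactive through the kinase WEE2 and against the phosphatase CDC25B. At PND4 the oocytes are in primordial and primary follicles and are not yet able to resume meiosis, so what was measured is the store of these transcripts in the young ovary.

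The count of *Nr5a2*, the targeted gene, was 18.5, 16.3, 15.02 and 12.2 CPM (the read count scaled to the size of its library) in CON 1 to CON 4 and 31.0, 23.1, 27.9 and 27.8 CPM in cKO 1 to cKO 4. The count was higher in the libraries labelled cKO (log2 fold change 0.82, SE 0.13, edgeR adjusted p = 0.0128). A count over the whole gene includes exons that Cre does not remove and does not show the deletion, so directions below are those of the libraries labelled cKO against those labelled CON. Assigned reads ranged from 14649243 to 29066847 per library. Oocyte and granulosa markers were present in every library, with summed levels of 1905 to 3841 CPM over the oocyte list, in which *Oog1* was at 0, and 1183 to 1632 CPM over the granulosa list. Some libraries stood apart: markers of neutrophils and of the red blood cell lineage were highest in CON 1 and CON 3, immediate-early genes were highest in cKO 1, and smooth muscle markers were lowest in cKO 1 and cKO 2. The edgeR calls of the genes described here are given with and without these libraries. Levels relative to markers and ratios between genes were run only with single libraries left out. Calls of genes in the wider pathway lists are not given without these pairs of libraries. By the study's description the libraries of a genotype came from separate animals, and the labels give no litter or pairing.

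The promoters of *Gpr3* and *Wee2* are shown because *Gpr3* was the gene of the 10 that passed the test below, and *Wee2* is a gene of the oocyte that followed the oocyte markers. RefSeq windows of 300 bases, from 250 before to 50 after the start of transcription, were at hand for 7 of the 10 genes (build GRCm38.p6). Capitals mark the half-site of the cAMP response element, TGACG, and the E-box, CANNTG, found on either strand. The windows lie at chr4:133212487-133212786 on the minus strand for *Gpr3* and at chr6:40442613-40442912 on the plus strand for *Wee2*, and are written 5′ to 3′ along each gene. The annotated *Wee2* gene begins upstream of its window, at 40435246, so that window belongs to a start inside the annotated gene.
Gpr3: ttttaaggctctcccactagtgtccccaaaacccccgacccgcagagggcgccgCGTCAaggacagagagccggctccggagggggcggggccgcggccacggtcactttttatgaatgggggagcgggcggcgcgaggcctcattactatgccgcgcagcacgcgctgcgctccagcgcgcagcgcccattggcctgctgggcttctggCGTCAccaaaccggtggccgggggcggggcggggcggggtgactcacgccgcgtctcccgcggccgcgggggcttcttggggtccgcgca
Wee2: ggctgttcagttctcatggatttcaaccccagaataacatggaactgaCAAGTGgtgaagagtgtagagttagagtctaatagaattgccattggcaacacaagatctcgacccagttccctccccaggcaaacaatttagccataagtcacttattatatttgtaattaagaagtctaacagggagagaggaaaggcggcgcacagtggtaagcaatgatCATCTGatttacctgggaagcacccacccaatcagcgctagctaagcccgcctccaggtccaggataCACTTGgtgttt
The *Gpr3* window held 2 matches of TGACG, both on the other strand and starting 196 and 40 bases before the start of transcription, and no E-box. The *Wee2* window held no TGACG and 3 matches of CANNTG. Among all 32851 windows of the same length, 20.8% held TGACG and 72.3% held CANNTG. The letters CAAGGTCA, bound by NR5A receptors, were in 1.56% of all windows and in none of the windows of these genes. No matches overlapped each other. A match in a window describes its letters and does not show a binding site.

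*Gpr3* was higher in all 4 libraries labelled cKO than in any labelled CON, and the other members of the arrest pathway that encode enzymes of cyclic nucleotides, *Adcy3*, *Pde3a* and *Npr2*, did not pass the test. Of the 9 genes with enough reads for the edgeR test, 1 passed at an adjusted p under 0.05, *Gpr3*, and none of the others did. Over all 15257 genes tested, 3.64% passed as higher and 3.28% as lower in cKO. With a fold of at least 1.5 as well, *Gpr3* was called, as were 0.891% of all genes as higher and 0.518% as lower. At an unadjusted p under 0.05, 4 of the 9 were higher (*Gpr3*, *Mos*, *Fbxo43* and *Wee2*) and none was lower, where 15.5% of all genes were higher and 13.3% lower. The 4 values of cKO lay above the 4 of CON without overlap for *Gpr3*, *Mos* and *Fbxo43*, as they did for 8.93% of all genes, and for none of the 9 did they lie below, as they did for 9.1%. The median log2 fold change was 0.20 over the 9 genes and -0.00 over all genes.

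**Figure D1:**
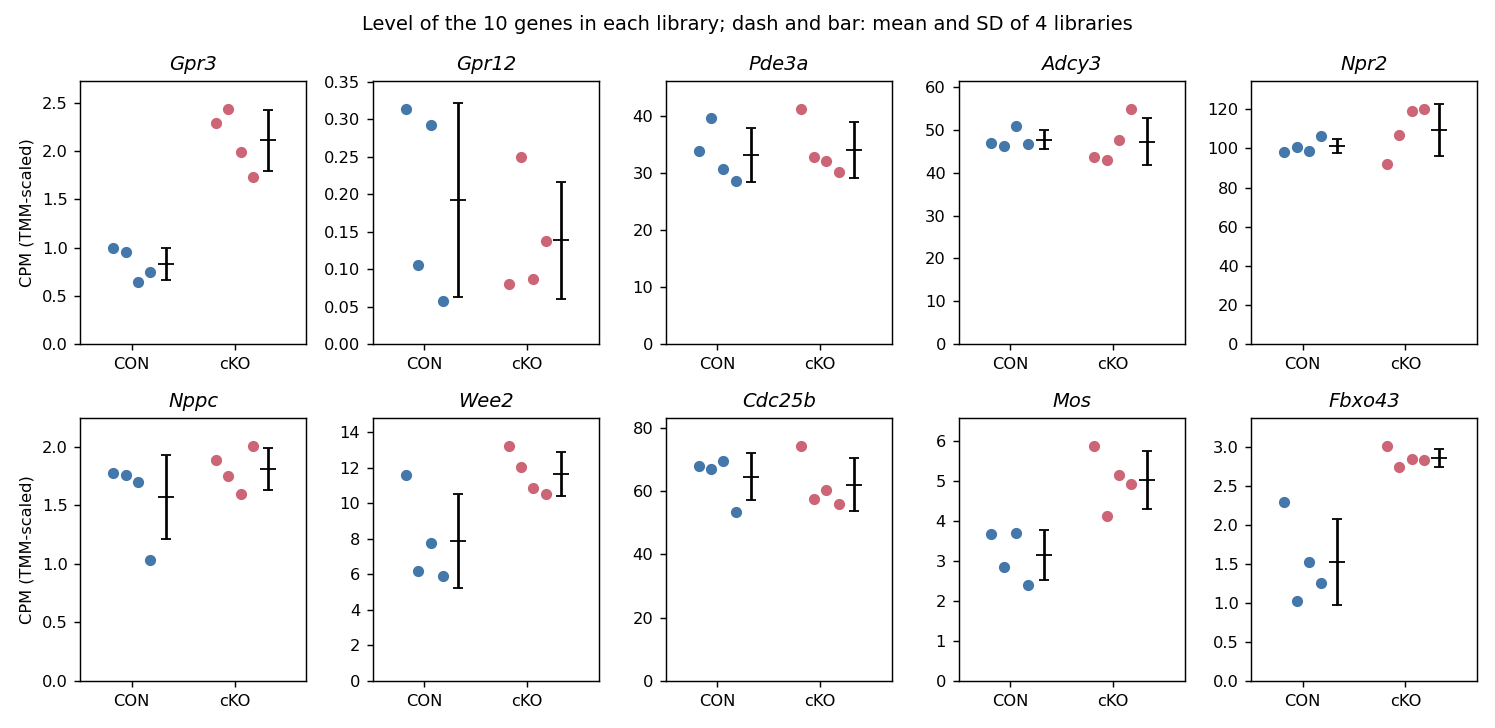
Level of each of the 10 genes in CPM (y axis, from 0, own scale per gene) in the 4 CON (blue) and 4 cKO (red) libraries, in the order of their numbers, with the mean and SD of each genotype beside the points. The points of *Gpr3*, *Mos* and *Fbxo43* do not overlap between genotypes, while those of *Pde3a*, *Adcy3*, *Npr2*, *Nppc* and *Cdc25b* do.

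*Gpr3* encodes a receptor that is active without a known ligand and keeps cAMP high in the mouse oocyte. Its reads numbered 19, 27, 11 and 13 in CON 1 to CON 4 and 57, 39, 46 and 25 in cKO 1 to cKO 4. Its level was 0.993, 0.950, 0.643 and 0.745 CPM in CON and 2.29, 2.43, 1.99 and 1.73 CPM in cKO. All 4 cKO libraries were thus above all 4 CON libraries, with the lowest cKO library, cKO 4, well clear of the highest CON library, CON 1. The means were 0.833 ± 0.167 CPM in CON and 2.11 ± 0.314 CPM in cKO (SD, n = 4 each), a fold of 2.50 in the fit (log2 fold change 1.32, SE 0.23, edgeR adjusted p = 0.0171). By size of increase *Gpr3* ranked 19 among the 15257 genes tested, although it is a low transcript that rests on 70 reads in CON and 167 in cKO. Whole-ovary RNA cannot tell a larger number of oocytes from more RNA per oocyte. It also does not show which cells the *Gpr3* reads came from.

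The increase of *Gpr3* was seen under every setting tried, and the call was not. Over 17 other settings its log2 fold change lay between 1.14 and 1.41. The edgeR adjusted p rose to 0.0651 without CON 2, 0.0771 without CON 3 and 0.0579 without CON 4. It was 0.0590 (log2 fold change 1.14) without cKO 1 and cKO 2, the libraries low in smooth muscle markers, and 0.0790 (1.29) without CON 1 and CON 3, the libraries high in neutrophil and red blood cell markers. With DESeq2 the adjusted p was 0.000640 with all libraries and between 0.00145 and 0.0112 with any one library left out.

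**Figure D2:**
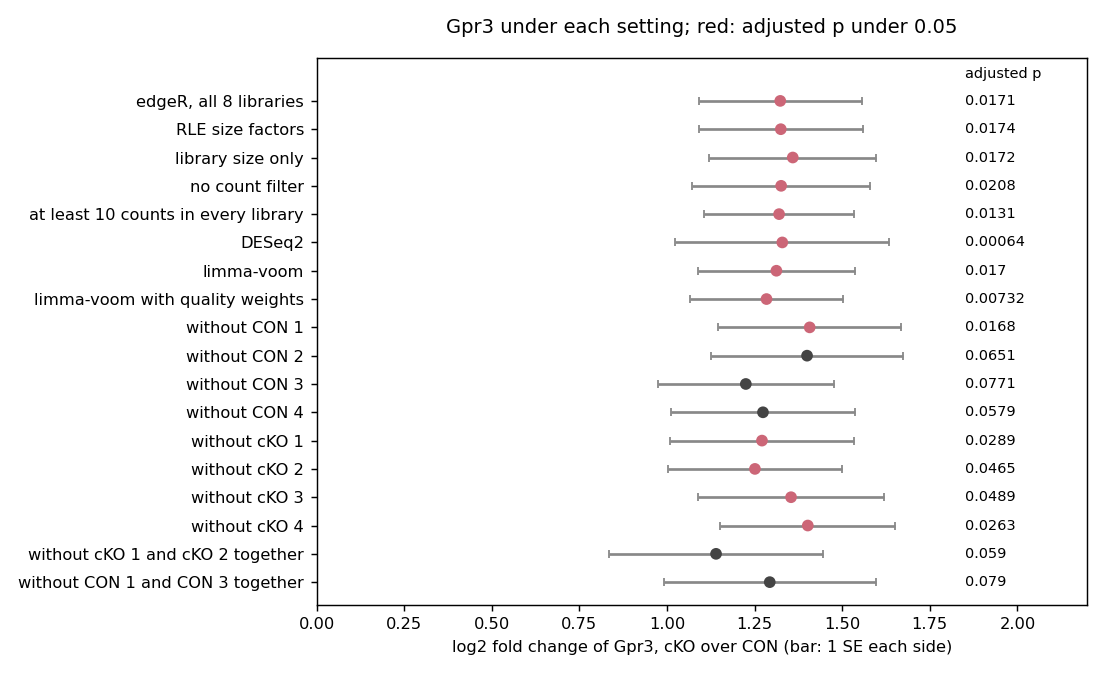
Log2 fold change of *Gpr3* (x axis, bars 1 SE each side) under each setting (y axis), with the adjusted p at the right and red points where it is under 0.05. All points lie between 1.14 and 1.41, and 5 settings that leave out libraries have an adjusted p above 0.05.

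The exons of *Gpr3* (GRCm38.p6, chromosome 4, 133209340 to 133212536, minus strand, 2734 exon bases) share 204 bases, 7.46% of their length, with *Cd164l2* on the opposite strand. The strand setting of the counting is not given in the sources used here, so reads of that stretch could be those of either gene. *Cd164l2* itself was at 37.2, 26.3, 30.8 and 21.1 CPM in CON and 46.9, 45.9, 42.7 and 36.6 CPM in cKO, and did not pass (log2 fold change 0.58, SE 0.16, edgeR adjusted p = 0.0561). Per 100 reads of *Cd164l2*, *Gpr3* had 2.67, 3.61, 2.09 and 3.53 reads in CON and 4.88, 5.29, 4.66 and 4.73 in cKO. These ratios did not overlap either, and *Gpr3* was higher in cKO by 0.75 on the log2 scale relative to *Cd164l2* (two-sided exact permutation p = 0.0286, the smallest that 4 against 4 allows). The comparison with *Cd164l2* was chosen after the values were seen, and the share of all genes without overlap on this scale was not computed. The ratio does not show which gene the reads of the shared stretch came from.

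*Gpr12*, the related receptor that holds the arrest in rat oocytes, was close to the limit of detection. Its reads numbered 6, 3, 5 and 1 in CON and 2, 4, 2 and 2 in cKO, too few to be tested. A difference in *Gpr12* was not detectable at this depth. *Gpr6*, the third receptor of this family, was also below the filter for testing.

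*Adcy3* encodes the adenylyl cyclase that makes cAMP in the mouse oocyte and also serves in other cells. It was at 46.9, 46.3, 51.0 and 46.8 CPM in CON and 43.7, 43.0, 47.6 and 54.8 CPM in cKO, with the lowest and the highest value both in cKO. The log2 fold change was -0.02 (SE 0.08, approximate 95% interval -0.17 to 0.14, edgeR adjusted p = 0.918). Of the *Adcy3* exon bases, 22.1% are shared with *Cenpo* on the opposite strand. *Pde3a*, the phosphodiesterase that breaks down cAMP in the oocyte, was at 33.8, 39.5, 30.7 and 28.5 CPM in CON and 41.2, 32.9, 32.0 and 30.1 CPM in cKO, and these values overlapped throughout. Its log2 fold change was 0.04 (SE 0.12, approximate 95% interval -0.20 to 0.28, edgeR adjusted p = 0.869). An increase of either gene as large as the fitted 1.32 of *Gpr3* lies outside these intervals.

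*Nppc* encodes the precursor of CNP, which granulosa cells of growing follicles release, and *Npr2* its receptor, a guanylyl cyclase that makes the cGMP passed to the oocyte. *Npr2* was at 98.4, 101, 98.8 and 106 CPM in CON and 91.9, 107, 119 and 120 CPM in cKO, where cKO 1 was the lowest of all libraries and cKO 3 and cKO 4 the highest. Its log2 fold change was 0.11 (SE 0.08, edgeR adjusted p = 0.370). Without cKO 1 and cKO 2 it was 0.24 and passed (edgeR adjusted p = 0.0290), and it also passed with DESeq2 without cKO 1, the library in which it was lowest. *Nppc* was at 1.78, 1.76, 1.69 and 1.03 CPM in CON and 1.89, 1.75, 1.60 and 2.01 CPM in cKO, overlapping but for the low CON 4 (log2 fold change 0.20, SE 0.23, edgeR adjusted p = 0.605). The ratio of ligand to receptor, *Nppc* over *Npr2*, differed by 0.11 on the log2 scale (two-sided exact permutation p = 0.714).

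*Wee2* encodes the oocyte kinase that keeps CDK1 inactive, and *Cdc25b* the phosphatase that activates it. *Wee2* was at 11.6, 6.16, 7.77 and 5.90 CPM in CON and 13.2, 12.0, 10.8 and 10.5 CPM in cKO. The 4 cKO values lay close together above CON 2 to CON 4, and only CON 1 reached into their range (log2 fold change 0.57, SE 0.20, edgeR adjusted p = 0.102). Without CON 1 the log2 fold change was 0.82 and passed (edgeR adjusted p = 0.0137), and without CON 2, CON 3 or CON 4 the adjusted p lay between 0.213 and 0.242. *Cdc25b* was at 67.9, 67.1, 69.7 and 53.5 CPM in CON and 74.3, 57.5, 60.5 and 55.9 CPM in cKO, with overlap (log2 fold change -0.05, SE 0.11, edgeR adjusted p = 0.775).

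*Mos* encodes a kinase that starts the MAP kinase cascade of the maturing oocyte, and *Fbxo43* encodes EMI2, which holds the egg in metaphase II by blocking the anaphase-promoting complex (APC/C). *Mos* was at 3.66, 2.85, 3.68 and 2.41 CPM in CON and 5.87, 4.11, 5.14 and 4.91 CPM in cKO, without overlap. Its adjusted p was just above the threshold (0.68 on the log2 scale, SE 0.18, edgeR adjusted p = 0.0543). *Fbxo43* was at 2.30, 1.02, 1.52 and 1.26 CPM in CON and 3.01, 2.74, 2.85 and 2.83 CPM in cKO, again without overlap and with CON 1 as the highest control (log2 fold change 0.92, SE 0.25, edgeR adjusted p = 0.0548). Both genes passed with DESeq2 (adjusted p = 0.0138 for *Mos* and 0.0151 for *Fbxo43*) and with limma-voom (adjusted p = 0.0422 and 0.0362). With DESeq2 7.69% of all genes passed as higher and 6.39% as lower, and with limma-voom 4.47% and 3.83%. With edgeR and no CON 1 both passed too (adjusted p = 0.0472 and 0.0160), in a fit in which 6.68% of all genes passed as higher and 4.79% as lower. Without CON 2, CON 3 or CON 4 neither passed with edgeR, with adjusted p from 0.118 to 0.149 for *Mos* and from 0.135 to 0.146 for *Fbxo43*. Without cKO 1 and cKO 2 the edgeR adjusted p was 0.0943 for *Mos* and 0.127 for *Fbxo43*. It was 0.0815 and 0.0534 without CON 1 and CON 3.

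**Figure D3:**
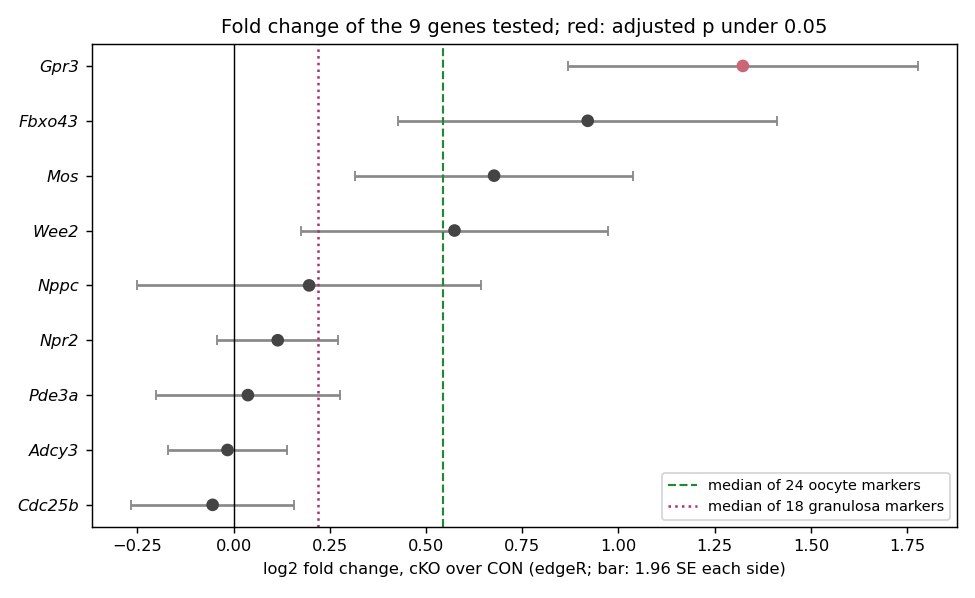
Log2 fold change, cKO over CON, of the 9 genes tested (points, x axis, bars 1.96 SE each side), ordered by size, with the medians of the oocyte (0.54, dashed) and granulosa (0.22, dotted) marker lists. *Gpr3*, the red point, lies above both medians, and *Pde3a*, *Adcy3* and *Cdc25b* lie near 0.

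Divided by exon length, the levels of the 10 genes in CON fell into a steep order. *Npr2* was highest at 21.7 ± 0.763 CPM per kilobase, followed by *Cdc25b* at 17.3 ± 2.0 and *Adcy3* at 7.65 ± 0.350 (SD, n = 4). These 3 are used by many cell types. *Pde3a* (2.60 CPM per kilobase), *Wee2* (2.50), *Mos* (2.17) and *Nppc* (1.5) formed the middle, where neighbours overlapped in their ranges. *Fbxo43* (0.378 ± 0.138) and *Gpr3* (0.305 ± 0.0610) overlapped each other, and *Gpr12* was last at 0.0765. In cKO *Wee2* (3.71) and *Mos* (3.46) stood above *Pde3a* (2.67), although *Mos* and *Pde3a* overlapped. *Gpr3* (0.772) and *Fbxo43* (0.709) overlapped in cKO as they did in CON.

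All 24 tested oocyte markers had a positive log2 fold change, with a median of 0.54, and 4 passed with edgeR, all higher (*Tcl1*, *Ddx4*, *Dazl* and *Bmp15*). With DESeq2 17 of the 24 passed, with CON 1 left out 16, and with CON 2, CON 3, CON 4, cKO 2 or cKO 3 left out none, while the median stayed between 0.46 and 0.78 and all 24 stayed positive. *Ddx4*, an RNA helicase of germ cells, was at 41.6, 28.8, 32.5 and 27.96 CPM in CON and 53.6, 56.0, 46.9 and 44.0 CPM in cKO (log2 fold change 0.62, SE 0.13, edgeR adjusted p = 0.0326). *Bmp15*, a growth factor secreted by oocytes, had the largest log2 fold change of the list (1.01, SE 0.25, edgeR adjusted p = 0.0434). Per library, the mean deviation of the oocyte list on the log2 scale was 0.09, -0.39, -0.24 and -0.56 in CON 1 to CON 4 and 0.50, 0.13, 0.33 and 0.15 in cKO 1 to cKO 4. Thus CON 1 was the control richest in oocyte transcripts, as it was for *Wee2* and *Fbxo43*, and no control reached the lowest cKO library. The granulosa list had a median of 0.22 with 1 of 18 passing (*Nr5a1*, higher by 0.60 on the log2 scale, SE 0.11, edgeR adjusted p = 0.0231). *Amhr2*, whose promoter drives Cre, was lower without passing (-0.59, SE 0.16, edgeR adjusted p = 0.0539). The 2 others of the granulosa list with the smallest p, *Gata4* and *Hsd17b1*, did not pass (log2 fold changes 0.55 and 0.66, edgeR adjusted p = 0.0563 and 0.102).

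Over the 8 libraries *Mos*, *Wee2* and *Fbxo43* followed the oocyte list closely. Pearson's r of log2 CPM with the mean of the oocyte markers was 0.96 for *Mos*, 0.95 for *Wee2* and 0.93 for *Fbxo43*, and 0.88, 0.89 and 0.79 after each genotype's mean was removed. For *Gpr3* it was 0.84, and 0.36 within genotype. For *Cdc25b* it was 0.30, and 0.77 within genotype, so that *Cdc25b* followed the list within a genotype nearly as closely as *Fbxo43* did. For *Pde3a* it was 0.35 and 0.45 within genotype, and for *Adcy3* -0.16 and -0.14. These are descriptions over 8 libraries that share their depth and their mix of cells between genes.

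*Gpr3* lay far below the mean of the oocyte markers in every library, and less far below it in cKO than in CON. Its log2 CPM (prior count 2) minus the mean of the 24 markers was -5.64, -5.22, -5.87 and -5.36 in CON and -4.92, -4.47, -4.95 and -4.96 in cKO, with no overlap and with cKO 2 the highest. The difference was 0.70 (two-sided exact permutation p = 0.0286, the smallest that 4 against 4 allows, and 0.0857 after Benjamini-Hochberg adjustment over the 9 genes compared this way). Without cKO 2 it was 0.58 (two-sided exact permutation p = 0.0571). Only 0.151% of all genes, 23 genes, were higher without overlap on this scale, and 38% were lower. No oocyte marker of the list had a log2 fold change above that of *Gpr3*. The largest, *Bmp15*, was at 1.01 (SE 0.25) against 1.32 (SE 0.23) for *Gpr3*, and the difference between them was not tested. Relative to the markers *Mos* differed by 0.11 and *Wee2* by 0.06, with overlap (two-sided exact permutation p = 0.257 and 0.600), and *Fbxo43* by 0.37 (p = 0.0571 in the same exact test).

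*Pde3a* and *Cdc25b* were lower relative to the oocyte markers in every cKO library than in any CON library, by -0.52 and -0.61 on the log2 scale, and *Adcy3* by -0.57 with overlap. The two-sided exact permutation p was 0.0286, 0.0286 and 0.0571, and none passed after adjustment over the 9 (0.0857, 0.0857 and 0.103). With 38% of all genes lower on this scale, this placed them with a large share of the transcriptome. Relative to granulosa markers, *Npr2* differed by -0.10 and *Nppc* by 0.02, both with overlap (two-sided exact permutation p = 0.600 and 1).

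**Figure D4:**
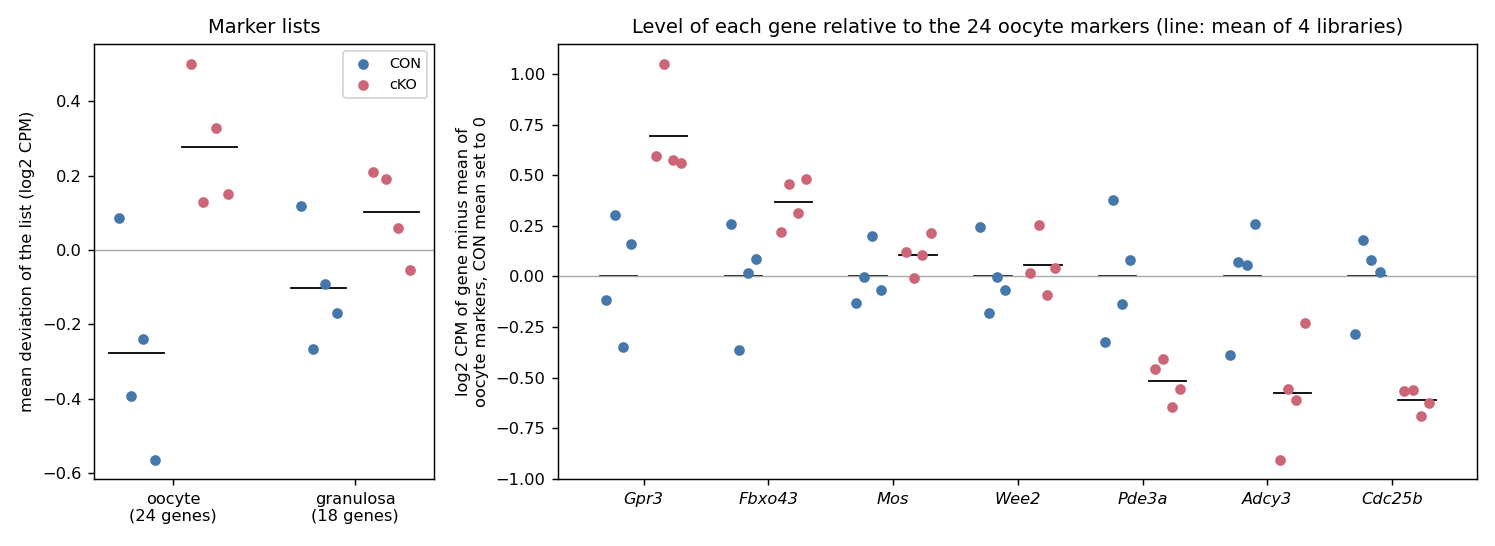
Left, mean deviation of the oocyte and granulosa marker lists per library (log2 CPM). Right, log2 CPM of 7 genes minus the mean of the 24 oocyte markers of the same library, with the CON mean of each gene set to 0 (points are libraries, lines the means of 4). *Gpr3* is higher in cKO by 0.70 without overlap, *Mos* and *Wee2* lie near 0, and *Pde3a* and *Cdc25b* are lower without overlap.

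Of 3 ratios between members within a library, 2 were higher in cKO. The share of such differences over all pairs of genes was not computed. All 24 tested oocyte markers had a positive log2 fold change, and 38% of all genes were lower relative to them without overlap. Relative to these markers *Wee2* differed by 0.06 and *Gpr3* by 0.70. *Gpr3* over *Pde3a*, the receptor that raises cAMP against the enzyme that destroys it, was -4.95, -5.24, -5.38 and -5.08 on the log2 scale in CON and -4.11, -3.70, -3.94 and -4.04 in cKO. All cKO values were above all CON values, by 1.21 in the mean (two-sided exact permutation p = 0.0286, Benjamini-Hochberg over 3 ratios 0.0429). *Wee2* over *Cdc25b*, the brake on CDK1 against its activator, was -2.54, -3.43, -3.15 and -3.16 in CON and -2.48, -2.25, -2.47 and -2.40 in cKO. These did not overlap either, though CON 1 came within reach of cKO 1, and the difference was 0.67 (two-sided exact permutation p = 0.0286, adjusted over the 3 ratios 0.0429). With any one cKO library left out, the exact permutation p of this ratio was 0.0571. *Cdc25b* and *Pde3a* are also expressed outside the oocyte, so these ratios are those of the ovary.

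Of all genes tested, 3.64% passed as higher and 3.28% as lower, and the lists of the wider pathway are given against these shares. Among 13 tested genes of cAMP synthesis and G proteins, 2 rose with edgeR, none fell and the median log2 fold change was 0.00. At an unadjusted p under 0.05, 3 were higher and 2 lower. The 2 that passed with edgeR were adenylyl cyclases. *Adcy6* went from 133, 137, 127 and 142 CPM in CON to 163, 154, 159 and 160 CPM in cKO without overlap (log2 fold change 0.23, SE 0.05, edgeR adjusted p = 0.0272). *Adcy2* went from 14.8, 13.5, 16.3 and 15.8 CPM to 20.5, 19.1, 19.3 and 18.3 CPM, also without overlap (0.36, SE 0.08, edgeR adjusted p = 0.0353). *Gnas*, which encodes the Gs subunit that couples GPR3 to the cyclase, did not pass (-0.17, SE 0.08, edgeR adjusted p = 0.207).

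Of 16 other phosphodiesterases 1 rose and 1 fell, with a median of -0.14, and no further gene had an unadjusted p under 0.05. *Pde8a*, which degrades cAMP, rose slightly (log2 fold change 0.30, SE 0.07, edgeR adjusted p = 0.0435). *Pde4c*, of the cAMP-specific PDE4 group, was at 0.889, 2.08, 0.760 and 0.859 CPM in CON and 0.0402, 0.499, 0.259 and 0.277 CPM in cKO. Its values did not overlap and were low throughout, lowest in cKO 1 (-2.22, SE 0.57, edgeR adjusted p = 0.0467). Of 13 genes of protein kinase A and its anchors 1 rose, the anchor *Akap12* (0.26, SE 0.06, edgeR adjusted p = 0.0389), none fell and the median was -0.04. At an unadjusted p under 0.05, 1 was higher and 2 lower. *Prkaca*, the catalytic subunit through which cAMP acts, did not pass (-0.14, SE 0.06, edgeR adjusted p = 0.129).

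Among 10 tested genes of cGMP and natriuretic peptides, 2 rose and 1 fell, with a median of -0.01, and at an unadjusted p under 0.05 there were 3 higher and 3 lower. *Npr1*, the receptor for the atrial and brain peptides, went from 123, 113, 106 and 121 CPM to 168, 146, 141 and 134 CPM (log2 fold change 0.35, SE 0.08, edgeR adjusted p = 0.0332). *Gucy1a1*, a subunit of the soluble guanylyl cyclase, rose by 0.34 (SE 0.08, edgeR adjusted p = 0.0449). *Impdh2*, which makes the guanine nucleotide precursor and whose activity in granulosa cells supports cGMP, was at 174, 181, 174 and 173 CPM in CON and 145, 146, 151 and 162 CPM in cKO. It fell without overlap (-0.22, SE 0.05, edgeR adjusted p = 0.0328). *Nppb* was at 0 in every library.

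In each of the cell-cycle lists 1 gene rose and none fell with edgeR. Of 18 genes of CDK1 activation it was *Pkmyt1*, an inhibitory kinase of CDK1 like *Wee2*, at 33.6, 28.04, 29.1 and 29.0 CPM in CON and 33.8, 43.6, 38.4 and 37.1 CPM in cKO (log2 fold change 0.35, SE 0.09, edgeR adjusted p = 0.0451). In cKO 1 it was barely above CON 1. The median of that list was -0.11. At an unadjusted p under 0.05, 7 of the 18 were lower and 2 higher, where 13.3% and 15.5% of all genes were. The cyclin *Ccna1* was lower without overlap, at 4.76, 3.94, 3.68 and 4.35 CPM in CON and 1.69, 0.810, 3.07 and 2.28 CPM in cKO, and did not pass (-1.07, SE 0.31, edgeR adjusted p = 0.0631). Of 21 genes of the APC/C and cytostatic factor it was *Cpeb1*, the protein that controls translation of stored oocyte mRNA, *Mos* mRNA among them. *Cpeb1* was at 79.9, 52.7, 54.9 and 48.6 CPM in CON and 103, 113, 84.9 and 79.2 CPM in cKO, where CON 1 just reached cKO 4 (0.69, SE 0.17, edgeR adjusted p = 0.0451). That list had a median of -0.01, and before adjustment 2 genes were higher and 2 lower at p under 0.05 with edgeR. None of these list calls held without CON 2 or without CON 3, where edgeR passed 0 genes in all, with 3314 and 3259 genes at an unadjusted p under 0.05 and 918 and 905 genes passing with DESeq2.

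The 5 genes whose log2 CPM over the 8 libraries was most like that of *Gpr3* were *Ogt*, *Pikfyve*, *Zmym6*, *Plcg1* and *Sycp2*, with r from 0.98 to 0.99, and from 0.84 to 0.94 within genotype. *Ogt*, the enzyme that adds O-GlcNAc to proteins, was at 158, 138, 115 and 131 CPM in CON and 209, 215, 200 and 186 CPM in cKO. *Sycp2*, a protein of the meiotic chromosome axis, was at 2.82, 2.53, 2.40 and 2.35 CPM in CON and 4.02, 4.30, 3.59 and 3.66 CPM in cKO. None of the 5 had overlap between genotypes, which a choice by r with *Gpr3*, itself without overlap, favours. The log2 fold changes of *Ogt* and *Sycp2*, 0.58 and 0.62, were smaller than that of *Gpr3*. The choice rests on the highest of 15257 values of r over 8 points.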

How the data were processed

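RNA of whole PND4 ovaries was sequenced from 4 CON and 4 cKO libraries. The authors made stranded mRNA libraries, aligned the reads to GRCm38 (mm10) with STAR and deposited raw read counts per gene from featureCounts (versions and strand setting not given in the sources used here). A table of the authors' own comparison (DESeq2), with fold changes and p-values, was not used. Columns of the count table name a genotype and a number and were joined to genotypes only, so libraries carry the column numbers.

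Of 24823 gene IDs, 24755 were joined to a symbol through NCBI gene tables. The tests used edgeR 4.0.16 under R 4.3.3 (TMM factors 0.978 to 1.03, filterByExpr, robust quasi-likelihood test, 15257 genes, Benjamini-Hochberg adjustment over all of them). A gene passed at an adjusted p under 0.05. The SE belongs to the log2 fold change, and intervals are 1.96 SE each side, which is approximate with so few libraries. CPM use TMM-scaled totals, and log2 CPM a prior count of 2. Relative levels and ratios were tested by two-sided exact permutation over 70 label assignments. Alternatives were RLE or library-size scaling, no filter or at least 10 counts in every library, a prior count of 0.5, DESeq2 1.42.0, limma-voom 3.58.1 with and without quality weights, other marker references, and omission of libraries. Omission of libraries with DESeq2, the ratio to *Cd164l2* and the oocyte list under each setting were added after seeing the data. On simulated data for this comparison (15257 genes, 200 changed), edgeR recovered 92.4%, 80.6% and 62.7% of genes changed 4-, 2- and 1.5-fold. The changed genes were drawn at random from all levels, and no difference in cell mix between libraries was simulated. These shares need not hold for low transcripts such as *Gpr3*. Gene start and end positions are those of RefSeq. Strands, exon lengths and overlaps are those of the GENCODE annotation of GRCm38.p6.

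The genes and lists were chosen with earlier results of these data known. Named are all 10 genes, the list members that passed, up to 4 oocyte and 4 granulosa markers with the smallest p, and the 5 genes most like *Gpr3*. *Cd164l2*, *Cenpo*, *Gpr6*, *Gnas*, *Prkaca*, *Ccna1*, *Nppb* and *Oog1* were named after their values were seen.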

Additional observations from a re-analysis of the deposited data

Results flagged for a closer look

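In 7 of 78 groups of 4 libraries examined, 1 library lay far from the other 3, with a gap to its neighbour, as a share of the group's range, above Dixon's 95% critical value. Chance alone flags about 1 in 20 groups. *Adcy3* was high in CON 3 at 51.0 CPM (gap 0.857 of the range). CON 4 was low for *Nppc* at 1.03 CPM (0.889), for *Cdc25b* at 53.5 CPM (0.844) and for the ratio of *Nppc* over *Npr2* at -6.55 on the log2 scale (0.916). *Gpr3* relative to the oocyte markers was high in cKO 2 at -4.47 on the log2 scale (0.926). The mean deviation of the phosphodiesterase list was low in cKO 1 at -0.19 (0.880), as was that of the cGMP and natriuretic peptide list at -0.20 (0.831). cKO 1 is also the library with the highest immediate-early genes, with a list deviation of 2.26.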

How the results depend on the processing

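*Gpr3*, *Mos*, *Fbxo43*, *Wee2*, *Npr2* and *Nppc* kept a positive log2 fold change under all 17 settings. No paired analysis was possible because the replicate numbers of the sample titles are not shared between genotypes and the columns carry no title number. The number of the 9 genes passing, 1 with edgeR, was 2 with at least 10 counts in every library, 3 with DESeq2 or limma-voom and 4 with quality weights, and 0 to 4 with 1 library left out (0 without CON 2, CON 3 or CON 4). Under the same rule, the share of all genes passing as higher and as lower was 3.64% and 3.28% with edgeR, 4.12% and 3.72% with at least 10 counts, 7.69% and 6.39% with DESeq2, 4.47% and 3.83% with limma-voom, 8.9% and 7.68% with quality weights and 6.68% and 4.79% without CON 1. These shares were 0.228% and 0.637% without CON 4. With 1 cKO library left out they ranged from 0.528% to 4.19% higher and from 0.9% to 3.73% lower. The number of the 9 genes passing was 1 without cKO 1 and cKO 2 (*Npr2*), where 2.04% of all genes passed as higher and 3.21% as lower. It was 1 without CON 1 and CON 3 (*Wee2*), where 0.491% passed as higher and 0.523% as lower. In the fits of edgeR in which none passed, 3 (without CON 2) or 4 (without CON 3 or CON 4) were higher at an unadjusted p under 0.05, and DESeq2 passed 1, 2 and 1. Over all genes, edgeR called 136 higher and 79 lower at a fold of at least 1.5, against 254 and 178 with DESeq2, 302 and 214 with quality weights, 61 and 157 without cKO 1 and cKO 2, 55 and 14 without CON 1 and CON 3, and 555 and 501 with no fold threshold. With 1 library left out they ranged from 0 to 322 higher and 0 to 105 lower. With 0 called (without CON 2 or CON 3), 3314 and 3259 genes had an unadjusted p under 0.05.

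With 1 library left out, the log2 fold change ranged from -0.078 to 0.136 for *Pde3a* and from -0.092 to 0.022 for *Adcy3*. *Pde3a* was also negative with quality weights (-0.048), without cKO 1 and cKO 2 (-0.103) and without CON 1 and CON 3 (-0.0064), and *Adcy3* positive with library-size scaling (0.016), quality weights (0.017), without cKO 1 and cKO 2 (0.094) and without CON 1 and CON 3 (0.018). *Cdc25b* was positive without CON 1 and CON 3 (0.038). Relative to markers and with 1 library left out, *Wee2* ranged from -0.012 to 0.137, *Nppc* from -0.136 to 0.135 and *Npr2* from -0.195 to 0.021, and with *Ddx4* alone as reference *Wee2* was at -0.014. None of these passed before or after. *Wee2* over *Cdc25b* stayed positive at 0.55 to 0.84 with any library left out, and *Gpr3* over *Pde3a* at 1.13 to 1.28, while *Nppc* over *Npr2* ranged from -0.086 to 0.212. Of the 9 genes, 1 or 2 were higher without overlap relative to markers with a library left out. The cause of these shifts was not tested.

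Depth limits *Gpr12* and *Gpr3*, whose reads number 1 to 6 and 11 to 57 per library.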
